A study of Saccharomyces cerevisiae with 36 samples.

Results

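Budding yeast strains in which every histone H3 molecule carried a C-terminal epitope tag were compared with an untagged strain of the same origin. Unless 1 tag is named, changes and counts below pool the 2 tagged strains. Calls that the HA tag and the T7 tag had in common are given as called with both tags. The strains were chosen by their labels: 4 arrays of the tagged strains, 2 of wt-rite-H3-HA and 2 of wt-rite-H3-T7, and 2 arrays of the untagged strain wt-rite, so that 6 of the 36 arrays of the series were compared. The series followed histone turnover in yeast lacking subunits of the NuB4 complex, which acetylates newly made histone H4. Its other arrays hold mid-log deletion strains and starved cells. Cells were taken in early mid-log growth in synthetic complete medium with glucose, each array held RNA of 1 strain and a common wild-type reference in 2 colours, and the tagged strains were profiled to see what the tags themselves do to mRNA levels.

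By the study's strain list all 3 strains are MATa, derive from BY4733, are deleted for HIS3, LEU2, TRP1, URA3 and MET15, are listed as bar1::HisG and carry a HIS3-marked gene for a hormone-dependent Cre recombinase under the TDH3 promoter (PTDH3_CRE_EBD78). In all of them the HHT1-HHF1 gene pair is replaced by MET15, which leaves HHT2 as the sole gene for H3 and HHF2 as the sole gene for H4. The tagged strains have HHT2-LoxP-HA or HHT2-LoxP-T7 in place of HHT2, without the drug marker, and are the products of recombination in strains that first carried the other tag. A tagged strain therefore differs from the untagged strain by the tag, by the LoxP site behind HHT2 and by its history of transformation and recombination, and these cannot be told apart. How many clones lie behind the arrays of a strain is not stated in the labels, and clonal differences cannot be told apart from the tag either. The titles of the untagged arrays carry the number 2 and those of the tagged arrays the number 1. What this number stands for is not given in the sources used here, and it moves with the tag. GEO's label names BY4742 as the strain on all 6 arrays, which is a MATα strain and does not match the MATa genotype. The data side with the genotype, because the genes transcribed only in MATa cells were far above the reference on all 6 arrays and those transcribed only in MATα cells far below it, as described with the mating genes.

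Histone H3 pairs with H4 at the centre of the nucleosome, and its C-terminus, to which RITE tags are fused, lies within the structured part of the protein. In recombination-induced tag exchange (RITE) old and new H3 are told apart by the tag they carry, HA or T7, so a tag that changes transcription by itself would enter every measurement made with it. HA is a short peptide from influenza hemagglutinin and T7 a short peptide from a bacteriophage capsid protein. Yeast responds to many kinds of disturbance with a shared program, in which genes of the stress response and of storage carbohydrates are induced and genes of ribosome production are repressed.

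All values are log2 ratios of strain over reference, and a change is the mean of the 2 tagged strains minus the untagged strain on that scale. Adjusted p under 0.05 was the threshold for a call. Of 6388 probes, 1710 (26.8%) were called higher and 1348 (21.1%) lower in the tagged strains. With each tag tested by itself against the same 2 untagged arrays, 1218 probes (19.1%) were called higher with both tags and 716 (11.2%) lower with both, and 8 were called in opposite directions. Most of these changes were small, since 87.0% of the called probes changed by less than 0.5, and only 109 called probes rose by more than 1 while 2 fell by more than 1. At a fold change above 1.7 and an adjusted p under 0.01 there were 193 higher (3.02%) and 7 lower (0.11%). On single arrays, 1557 probes (24.4%) had all 4 tagged arrays above both untagged arrays and 1281 (20.1%) had all 4 below. Some genes named below were called with the tags pooled but not with both tags, among them HTB2, SKN7, SIR2, RIF2, SPT10, KTR5, YNL035C and LYS2. List counts shrank too, from 15 to 8 lower for cytoplasmic ribosomal protein genes and from 11 to 4 higher for oxidative phosphorylation. The balance of directions depended on the scaling of the arrays: after median centring in place of loess 1265 probes were called higher and 1559 lower, so that 44.8% of the called probes were higher against 55.9%. The numbers of calls also rested on which arrays set the spread. With the 6 arrays alone 910 probes were called higher and 370 lower, and without the untagged replicate b 941 higher and 442 lower. The study's methods describe profiles from independent cultures for its mutants, but which culture an array of the RITE strains holds is not stated in the labels, so the p-values refer to array-to-array spread, part of which may be technical.

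The arrays were of similar quality. Median foreground was 6.02 to 7.56 times the local background in the channel of the strain, the share of probes exceeding background by 2 SDs was 95.0% to 98.8%, and the arrays of a strain correlated across probes at 0.92 to 0.96. The median change was -0.04 to 0.04 on each of the 16 nuclear chromosomes, so no chromosome was shifted as a whole. Because the arrays measure the RNA of a culture, a change in the share of cells and a change in RNA per cell cannot be told apart.

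The probe of HHT2, the tagged gene itself, was lower in the tagged strains. Its log2 ratio was 0.26 and 0.07 on the untagged arrays, -0.09 and -0.32 with H3-HA and -0.09 and -0.08 with H3-T7. The 4 tagged arrays all lay below the untagged ones. HHT2 fell by 0.31 with both tags pooled (SE 0.05, adjusted p = 5.28e-04), with a change of -0.37 with HA and -0.25 with T7, and after median centring the pooled change was -0.50. An exact two-sided permutation test over the 6 arrays gave p = 0.0667, which is the smallest value that 4 against 2 arrays allow. From qRT-PCR and microarrays, the paper describes H3 mRNA levels in tagged RITE strains as very similar to those of untagged cells. The qRT-PCR was not analysed here. The tag and the LoxP site alter the end of the HHT2 transcript. Whether the position of the probe relative to them contributes to the change was not tested. The probe of HHT1 was also lower, at -1.25 and -1.26 without a tag and between -1.93 and -1.78 on the tagged arrays (change -0.58, adjusted p = 3.29e-06). HHT1 is deleted in all 3 strains and nearly identical to HHT2 in its coding sequence, so this probe is no independent measure of H3 transcription. HHF2, which shares its promoter with HHT2 and encodes H4, showed a change of -0.04 (SE 0.07, adjusted p = 0.653), and its 6 arrays overlapped between -0.33 and 0.08. The probe of the deleted HHF1 was at -0.31 with HA and 0.01 with T7, a difference between the tags of -0.32 (adjusted p = 0.0345). After median centring HHF2 and HHF1 were called lower as well, at -0.30 each, and HHF1 also without the untagged replicate a (-0.26, adjusted p = 0.0261).

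**Figure D1:**
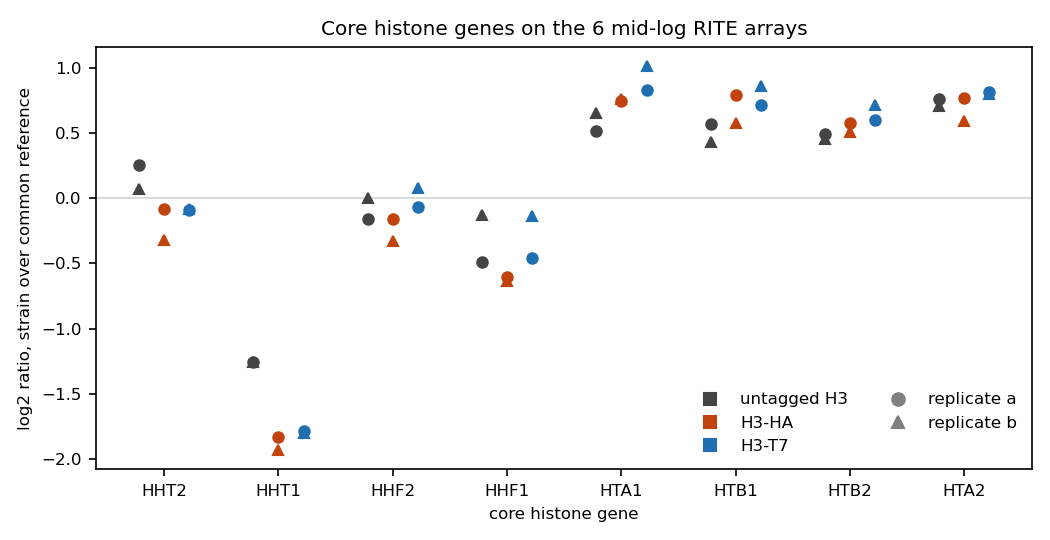
Log2 ratio of strain over common reference (vertical axis) for the 8 core histone genes on each of the 6 arrays. Gray, orange and blue are untagged H3, H3-HA and H3-T7, and circles and triangles are replicates a and b. HHT2 and HHT1 are lower on all 4 tagged arrays, while the arrays of HHF2, HHF1 and HTA2 overlap.

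The genes of the partner histones went the other way under the main scaling. HTA1 and HTB1, a divergent gene pair for H2A and H2B, were at 0.51 and 0.65 and at 0.57 and 0.43 on the untagged arrays. On the tagged arrays HTA1 was between 0.74 and 1.01 and HTB1 between 0.58 and 0.86, in each case without overlap. The changes were 0.25 for HTA1 (adjusted p = 3.14e-04), 0.23 for HTB1 (adjusted p = 0.00677) and 0.13 for HTB2 (adjusted p = 0.0235), whereas HTA2 was at 0.01 (adjusted p = 0.922). These directions turned after median centring, to -0.07 for HTA1 and HTB1, -0.20 for HTB2 and -0.32 for HTA2, none with an adjusted p under 0.05 except HTA2 (0.00805). HTA1 was at 0.14 with the authors' normalized ratios (adjusted p = 0.0681). HTB1 was lost with the 6 arrays alone (adjusted p = 0.107). HTB1 and HTB2 also missed the threshold without the untagged replicate b (adjusted p = 0.149 and 0.284), HTB2 also without HA replicate a or T7 replicate b (0.0704 and 0.0893). The H2A variant HTZ1, the centromeric H3 variant CSE4 and the linker histone HHO1 had changes of 0.08, 0.08 and -0.03 and were not called.

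Around the tagged locus, 10 of the 13 genes that start within 10 kb of HHT2 were measured, and 1 was called higher and 4 lower, against 26.8% and 21.1% of all probes. Apart from HHT2, the called genes changed little. YNL034W rose by 0.30, more with HA (0.47) than with T7 (0.14). KTR5, SIW14 and YNL035C fell by 0.10, 0.14 and 0.15, and with the 6 arrays alone the calls of these 3 genes were lost (adjusted p = 0.13, 0.0692 and 0.0657). Without the untagged replicate b KTR5 and SIW14 missed the threshold (0.209 and 0.1), and without the untagged replicate a YNL035C did (0.0875). After median centring KTR5 was at 0.04.

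Histone turnover was followed in the study at the promoters of IMD1, ADH2, HHT2 and ADH1, of which IMD1 was not analysed here. ADH1 and ADH2 encode alcohol dehydrogenases. BUD3 and SPA2, whose products act at the site of budding, were in the same list. ADH1 was at -0.26 and 0.01 on the untagged arrays and at 0.04, 0.40, 0.18 and 0.60 on the tagged arrays. The groups did not overlap, although their nearest values lay close together, and the change of 0.43 (adjusted p = 4.68e-05) shrank to 0.07 after median centring (adjusted p = 0.491). ADH2 rose by 0.30 (adjusted p = 2.49e-04) and was at 0.01 after median centring (adjusted p = 0.923). SPA2 fell by 0.21 (adjusted p = 0.00109, and 0.0721 without the replicate block), while BUD3 was at -0.05 (adjusted p = 0.461).

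The marker genes that all 3 strains share served as a check. The list of 11 marker and cassette genes, which also holds HHT2, HHT1 and HHF1, had 3 called higher and 3 lower. That is 27.3% in each direction, against 26.8% and 21.1% of all probes, and HHT2 and HHT1 are among those lower. TRP1, deleted in each of the 3 strains, was between -3.05 and -2.87 on all 6 arrays and did not separate the groups (change 0.03, adjusted p = 0.572). LYS2 was between 2.43 and 2.68 with overlapping groups and was called lower by 0.09 (adjusted p = 0.032), which was lost without either untagged array (0.263 and 0.0932). HIS3 was between 0.05 and 0.21, and the changes of LEU2 and URA3, whose probes were above background on 3 of the 6 arrays, were -0.05 and -0.07. MET17, whose gene is also called MET15 and marks the HHT1-HHF1 replacement, was at -0.34 and -0.19 without a tag and between 0.07 and 0.59 with one. It rose by 0.57 (adjusted p = 6.93e-05) although its genotype is the same in all 3. TDH3, whose promoter also drives Cre, rose by 0.40 under the main scaling and was at 0.01 after median centring.

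The largest increases were in genes of heat shock and stress, in a gene of mating, and in 4 probes of open reading frames with no product given. HSP26, a small heat shock protein that binds unfolded proteins, was at 0.44 and 0.23 on the untagged arrays and at 2.02, 3.29, 2.45 and 2.35 on the tagged arrays, a rise of 2.19 or 4.56-fold (SE 0.22, adjusted p = 1.07e-05). HPF1, a cell wall mannoprotein, was at 0.02 and 0.26 against 2.16, 2.32, 2.07 and 2.71, a rise of 2.17 (SE 0.09, adjusted p = 1.84e-08). In both cases every tagged array stood more than 1 above the higher untagged array. RTN2, a reticulon of the endoplasmic reticulum, rose by 1.94, SSA4, an inducible Hsp70 chaperone, by 1.72, and TFS1, an inhibitor of carboxypeptidase Y, by 1.69. FIG1, a membrane protein of mating cells that takes part in calcium uptake, was at 0.70 and 0.64 without a tag and between 2.23 and 2.77 with one (change 1.79, SE 0.08, adjusted p = 1.84e-08). SER3, which starts serine synthesis, rose by 1.51 and SNZ1, an enzyme of vitamin B6 synthesis, was at 0.36 and 0.63 without a tag and between 1.86 and 2.38 with one. MSC1, GND2, a minor 6-phosphogluconate dehydrogenase, and FMP16 completed the 15 highest genes with rises of 1.46, 1.39 and 1.37.

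Among these 15 were YGR109W-B, YGR109W-A, YDR210W-B and YFL002W-B. The tables used here give no product for them, and YGR109W-A and YGR109W-B start at the same position. YGR109W-B was at 1.19 and 1.20 on the untagged arrays and at 3.05, 2.62, 2.85 and 2.99 on the tagged arrays, a rise of 1.68 (SE 0.09, adjusted p = 1.06e-07). YDR210W-B rose by 1.54 and YFL002W-B by 1.52, and each rose more with HA (1.87 and 1.81) than with T7 (1.21 and 1.24). Transcripts of near-identical copies, where they exist, can share the signal of such a probe. With all 36 arrays in 1 fit the call of YGR109W-B was lost (adjusted p = 0.144).

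**Figure D2:**
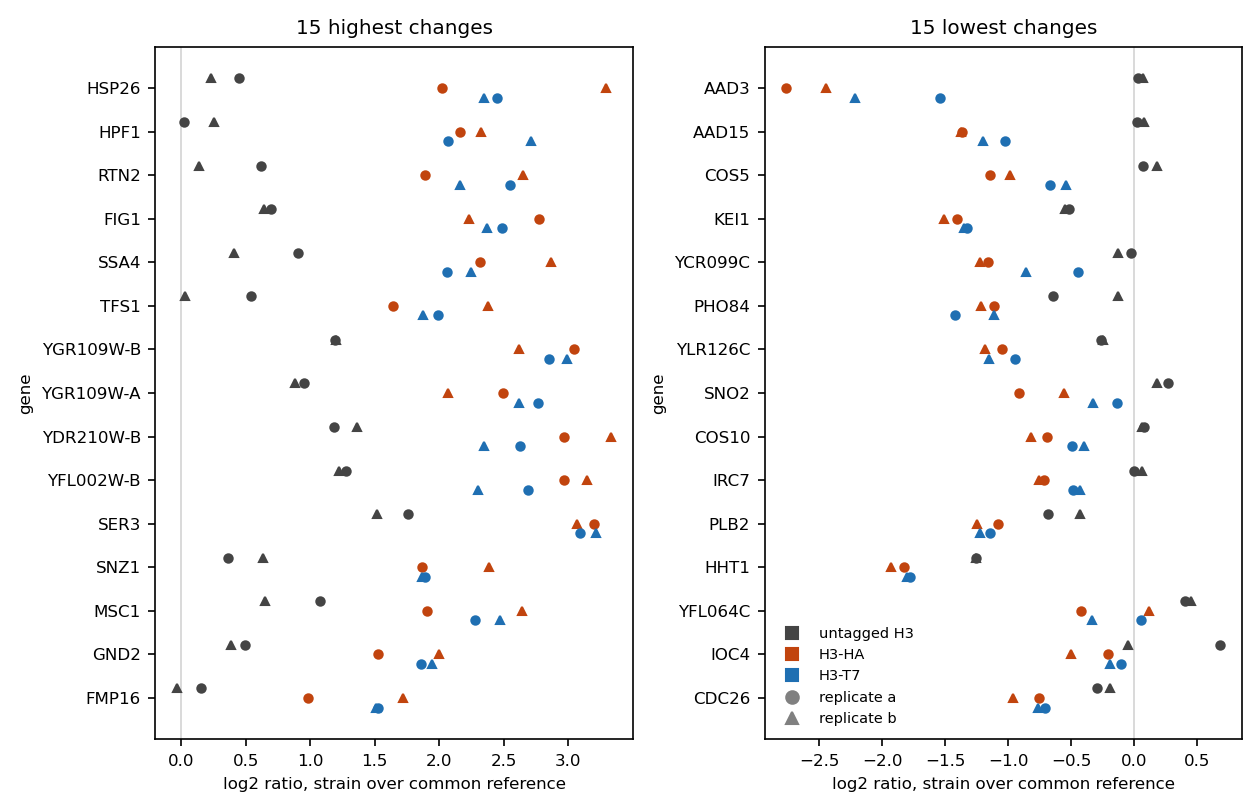
Log2 ratio of strain over common reference (horizontal axis) for the 15 genes with the highest and the 15 with the lowest change among those called with both tags and separated on every array. Colours mark the strain and symbols the replicate. In each row the gray symbols of the untagged strain stand to 1 side of all 4 tagged symbols.

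The decreases were fewer and smaller, and many lay at chromosome ends. AAD3, of the aryl-alcohol dehydrogenase family, was at 0.03 and 0.07 on the untagged arrays and at -2.76, -2.45, -1.54 and -2.22 on the tagged arrays. It fell by 2.29 (SE 0.16, adjusted p = 5.75e-07), to 0.20 of the untagged level. AAD15, of the same family, was at 0.02 and 0.08 against -1.37, -1.38, -1.03 and -1.20 and fell by 1.30 (SE 0.08, adjusted p = 2.18e-07). COS5 and COS10, of a gene family found next to telomeres, fell by 0.96 and 0.67. KEI1, a subunit of the enzyme that makes inositol phosphorylceramide, fell by 0.87 and was below both untagged arrays (-0.51 and -0.55) on all 4 tagged arrays (-1.51 to -1.33). YCR099C and YLR126C fell by 0.85 and 0.83, the former with only 2 of 4 tagged arrays above background. PHO84, a phosphate transporter of high affinity, was at -0.65 and -0.13 against -1.42 to -1.11, and its fall of 0.83 (SE 0.23, adjusted p = 0.0104) missed the threshold without the untagged replicate b (adjusted p = 0.198). SNO2, IRC7, a beta-lyase, PLB2, a phospholipase B, YFL064C, IOC4, a subunit of an ISWI remodeler, and CDC26, a subunit of the anaphase-promoting complex, fell by 0.71, 0.63, 0.62, 0.57, 0.57 and 0.55. IOC4 was at 0.68 and -0.05 on the untagged arrays, and its change was -0.29 without the untagged replicate a. The call of YFL064C was lost with the 6 arrays alone and without the untagged replicate b (adjusted p = 0.0893 and 0.0644).

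Of 171 measured genes that start within 20 kb of the outermost gene of a chromosome arm in the RefSeq R64 annotation, 60 were called higher and 41 lower, which is 35.1% and 24.0% against 26.8% and 21.1% of all probes. With both tags 52 were higher and 22 lower. Without the untagged replicate b, and likewise with the 6 arrays alone, 22 of the 171 were called lower. AAD3, AAD15, COS5 and COS10 start within 5 kb of that gene, and 6 of the 35 genes in this window fell by more than 0.5, against 14 of the 4006 genes more than 100 kb away, and 5 of the 35 rose by more than 0.5 against 176 of the 4006. Probes in this window were dimmer, with a median log2 intensity of 6.96 against 8.46. The increases near the ends included MSC1, HXK1, a hexokinase (1.30), THI11, of thiamine precursor synthesis (1.01), and MCH2 (0.88). THI11, AAD3, AAD15, SNO2 and the COS genes have near-identical relatives that can share their probes. HXK1 missed the threshold without the untagged replicate b (adjusted p = 0.09). The tags also differed from each other more often at 5 to 15 kb than farther in, as given below.

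**Figure D3:**
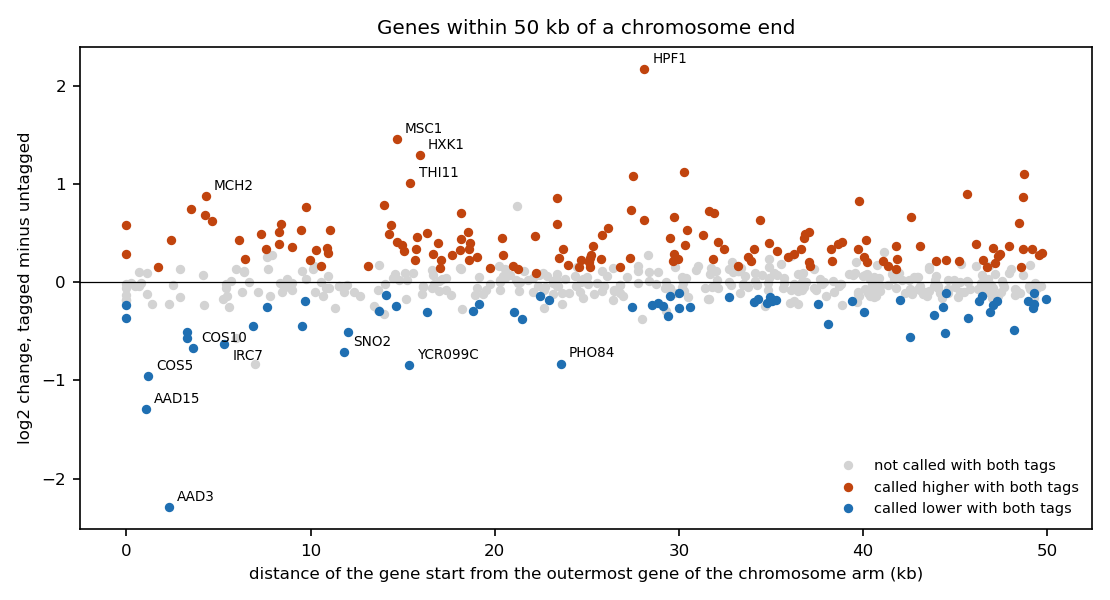
Change of tagged minus untagged on the log2 scale (vertical axis) against the distance of a gene start from the outermost gene of the chromosome arm in kb (horizontal axis), for 559 genes within 50 kb. Orange and blue mark genes called higher or lower with both tags and gray all others. AAD3, AAD15 and COS5, the genes with the largest decreases, lie within 5 kb.

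Genes of the stress response rose in large numbers. Of 40 genes of the kind controlled by the stress factors Msn2 and Msn4, 37 were called higher and 3 lower, 31 of them higher with both tags, and their median change was 0.68 against -0.01 for all probes. The exceptions were YRO2, a membrane protein (-0.53), GPP1, a glycerol phosphatase (-0.18), and MSN2 itself (-0.11), which the rule for named genes does not include and which is given here after its value was seen. Of 26 heat shock genes 17 were called higher and none lower (median 0.41), with HSP12, a membrane-stabilizing protein, at 2.30 and 2.23 without a tag and between 3.06 and 3.91 with one (change 1.25) and HSP31, a methylglyoxalase, at 1.13. Of 22 genes of trehalose and glycogen metabolism 18 were called higher and none lower (median 0.51). GPH1, glycogen phosphorylase, rose by 1.07, PGM2, phosphoglucomutase, by 1.03, UGP1, which makes UDP-glucose, by 1.00 and GDB1, the glycogen debranching enzyme, by 0.90. Of 32 genes of oxidant defence 23 were called higher and 2 lower (median 0.28). TSA2, a peroxiredoxin, rose by 1.16, CTT1, the cytosolic catalase, by 1.03 and the glutaredoxins GRX1 and GRX2 by 0.69 and 0.62, while GRX4 and SKN7, a transcription factor, fell by 0.43 and 0.16.

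The size of this response varied between arrays. Over the 40 stress genes the median level was 0.44 and 0.16 on the untagged arrays and 0.76, 1.31, 1.02 and 0.92 on the tagged arrays, with HA replicate b the highest. Within replicate a the median change was 0.54 and within replicate b it was 0.85. Fewer of these genes were called with the 6 arrays alone (25 of the 40 stress genes, 8 heat shock genes, 8 trehalose and glycogen genes and 16 oxidant defence genes higher) and without the untagged replicate b (21, 5, 7 and 18), while their medians stayed above 0 under every alternative. PGM2 and CTT1 were among the genes lost without that array (adjusted p = 0.139 and 0.0553), GPP1 (0.711) and SKN7 (0.233) were lost as well, and YRO2 was lost without the untagged replicate a (adjusted p = 0.0617).

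Genes of carbon metabolism rose with them. Of 17 genes of the citric acid cycle 14 were called higher and none lower (median 0.35), among them CIT1, citrate synthase, which was at 0.39 and 0.17 on the untagged arrays and between 0.77 and 1.14 on the tagged arrays (change 0.66), and ACO1, aconitase (0.50). Without the untagged replicate b 7 of the 17 were called higher and CIT1 was at 0.44, and the glycolysis, glucose-repressed and hexose lists had 5, 12 and 6. Of 26 genes repressed by glucose 16 were called higher and none lower (median 0.21), with CAT2, carnitine acetyltransferase, at 0.74 and GUT2, mitochondrial glycerol-3-phosphate dehydrogenase, at 0.69. Of 16 genes of hexose transport and sensing 8 were higher and 2 lower, led by HXT5 (0.97), HXT6 (0.69) and HXT2 (0.66), hexose transporters. HXT6 was at 0.17 after print-tip loess (adjusted p = 0.104). Glycolysis and fermentation had 13 of 21 genes higher and none lower with a median of 0.15, but after median centring none was called higher and 9 lower with a median of -0.16. TDH1 and GPM1, at 0.42 and 0.40, were at 0.03 each after that scaling, and GPM1 was at -0.84 after print-tip loess. Oxidative phosphorylation had 11 of 36 genes higher and 1 lower (median 0.11, and -0.02 after median centring), which is 30.6% higher against 26.8% of all probes, and 1 was called higher without the untagged replicate b and 24 at most without a tagged array. Its subunit genes COX5B and COX5A, alternative forms of the same subunit of cytochrome c oxidase, took opposite directions at 0.57 and -0.19, the latter lost with the 6 arrays alone and without the untagged replicate b (adjusted p = 0.0579 and 0.125).

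Genes of ribosome production fell by small amounts. Of 80 ribosome biogenesis genes 59 were called lower and none higher, 20 of them lower with both tags, and the median was -0.21. DBP2, an RNA helicase, was at 0.53 and 0.61 without a tag and between -0.14 and 0.25 with one and fell by 0.50 (adjusted p = 0.00136). RRP12, NOP4 and RRP5, which act in the maturation of ribosomal RNA and its subunits, fell by 0.35, 0.34 and 0.34. The median level of the list was 0.09 and 0.21 on the untagged arrays and between -0.17 and 0.00 on the tagged arrays. The count of calls rested on the estimate of the spread: with the 6 arrays alone 6 of the 80 were called and without the untagged replicate b 3, and DBP2, RRP12, NOP4 and RRP5 were all lost without that array (adjusted p = 0.0808, 0.397, 0.143 and 0.431). RRP12 was also lost without HA replicate b or T7 replicate a (0.0596 and 0.0614). After median centring 75 were called.

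The other lists of the translation machinery also had medians below 0. Of 39 genes of RNA polymerase III and tRNA modification 24 were called lower and 1 higher (median -0.17), with RPC17, a polymerase III subunit, at -0.52 and the tRNA methyltransferase genes TRM82 and TRM10 at -0.37 and -0.33. Of 45 genes of translation factors and tRNA synthetases 22 were lower and none higher (median -0.11), led by TIF4631, eIF4G (-0.33), and MES1, methionyl-tRNA synthetase (-0.28). Of 52 cytoplasmic ribosomal protein genes 15 were lower and 1 higher (median -0.08), and of 61 mitochondrial ones 21 were lower and 1 higher (median -0.05), which is 28.8% and 34.4% lower against 21.1% of all probes. RPS27A and RPL16A fell by 0.33 and 0.28, and MRPL15 and MRPL51 by 0.27 and 0.24. With the 6 arrays alone these lists had 5, 4, 1 and 4 genes called lower, and without the untagged replicate b 3, 6, 4 and 7, with RPS27A and RPL16A lost in both. After median centring 51 of the 52 cytoplasmic ribosomal protein genes were called lower. Of 22 genes of purine and one-carbon metabolism 14 were lower and none higher (median -0.18), with GCV2 and GCV1, of glycine cleavage, SHM2, serine hydroxymethyltransferase, and ADE17 at -0.38, -0.35, -0.34 and -0.30 (GCV1 at -0.20 without the untagged replicate a). That list had 7 called with the 6 arrays alone, 7 without the untagged replicate b and 1 with all 36 arrays in 1 fit. The proteasome list had 12 of 32 higher and none lower (median 0.11), with PRE7, a core subunit, at 0.27 and RPN4, the transcription factor of proteasome genes, at 0.24 (lost without the untagged replicate b, adjusted p = 0.0917), and after median centring 1 higher and 5 lower. It had 1 gene called higher without the untagged replicate b and 2 with the 6 arrays alone.

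**Figure D4:**
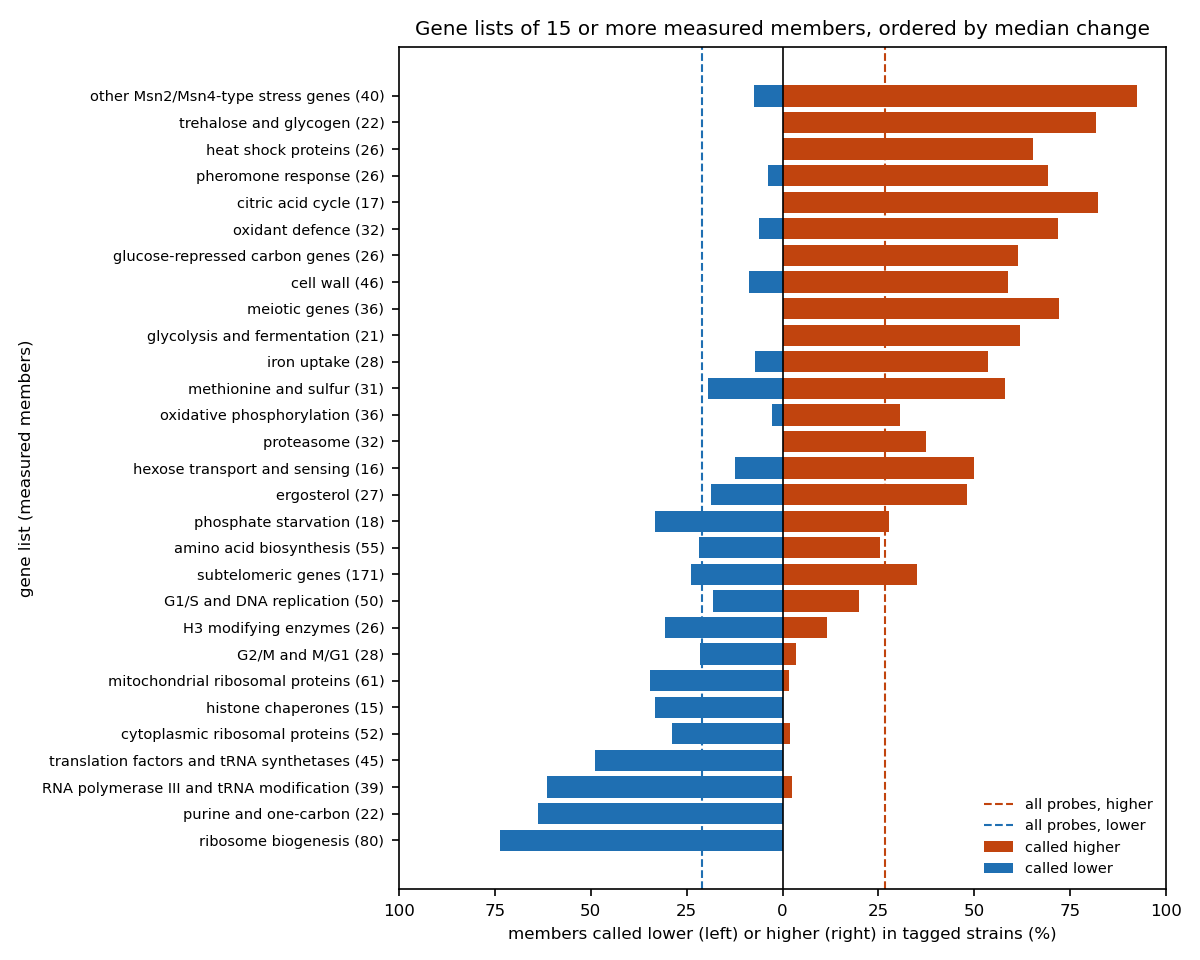
Percentage of the measured members of each gene list called higher (right, orange) or lower (left, blue) in the tagged strains, for lists of 15 or more members ordered by median change. The dashed lines mark the 26.8% and 21.1% of all probes called higher and lower, and stress, storage carbohydrate and pheromone lists stand at the top and ribosome biogenesis at the bottom.

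Genes of mating were higher in the tagged strains. All 4 tagged arrays lay above both untagged arrays for 16 of 26 pheromone response genes and 3 of 7 a-specific genes, against 24.4% of all probes. They lay below both for 2 pheromone response genes and 0 a-specific genes, against 20.1% of all probes. Within replicates a and b the median change of the pheromone response list was 0.35 and 0.36. The pheromone response list had 18 of 26 genes called higher and 1 lower, 15 of them higher with both tags, and a median of 0.35. PRM6, a potassium channel, was at 0.41 and 0.44 on the untagged arrays and at 2.28, 1.61, 1.84 and 1.47 on the tagged arrays (change 1.37, adjusted p = 4.46e-07). AGA1, the anchor subunit of the agglutinin of MATa cells, was at 1.22 and 1.48 against 2.38 to 2.77 (change 1.22), and PRM2, a pheromone-regulated membrane protein, was at 0.81 and 0.65 against 1.67 to 2.05 (change 1.11, SE 0.04). STE20, a kinase of the pathway, fell by 0.14 and was lost with the 6 arrays alone and without either untagged array (adjusted p = 0.0836, 0.0891 and 0.0501). With these arrays alone 15 of the 26 genes were still called higher, and 16 without the untagged replicate b.

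The genes that mark the mating type moved in both classes. The a-specific genes were high on all 6 arrays and rose further in 6 of 7 cases (median 0.32): ASG7, a regulator of pheromone signaling, was at 1.49 and 1.56 without a tag and between 2.09 and 2.61 with one (change 0.90), AGA2, the adhesion subunit of the agglutinin, rose by 0.58, and MFA1, which encodes the pheromone a-factor, was between 3.83 and 4.83 and rose by 0.32. BAR1, the protease that degrades alpha-factor, was at 2.45 and 2.61 against 2.79 to 3.16 (change 0.42), a level that goes against the bar1::HisG genotype of the strain list. Whether the probe lies outside the disrupted part or the genotype is listed wrongly was not tested. The alpha-specific genes were far below the MATα reference on all 6 arrays and yet less so in the tagged strains, with 4 of 4 called higher (median 0.53). SAG1, the agglutinin of MATα cells, was at -3.37 and -3.08 without a tag, at -1.85 and -1.76 with HA and at -2.38 and -2.32 with T7. It rose by 1.14 (SE 0.07, adjusted p = 1.58e-07), and by more with HA (1.42) than with T7 (0.87). STE3, the receptor for a-factor, rose by 0.50 and the alpha-factor genes MF(ALPHA)1 and MF(ALPHA)2 by 0.56 and 0.38. The groups of MF(ALPHA)2 and of MFA1 overlapped. The probes of all 4 alpha-specific genes were above background on all 6 arrays. After median centring the calls of MFA1 and MF(ALPHA)2 were lost (adjusted p = 0.127 and 0.0586), and without the dye effect that of MFA1 (adjusted p = 0.247), whose replicates a and b lay apart in every strain. Of the 7 a-specific genes 3 were called higher after median centring (median 0.14), 3 without the dye effect and 3 with all 36 arrays in 1 fit. With the 6 arrays alone 5 were called higher.

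**Figure D5:**
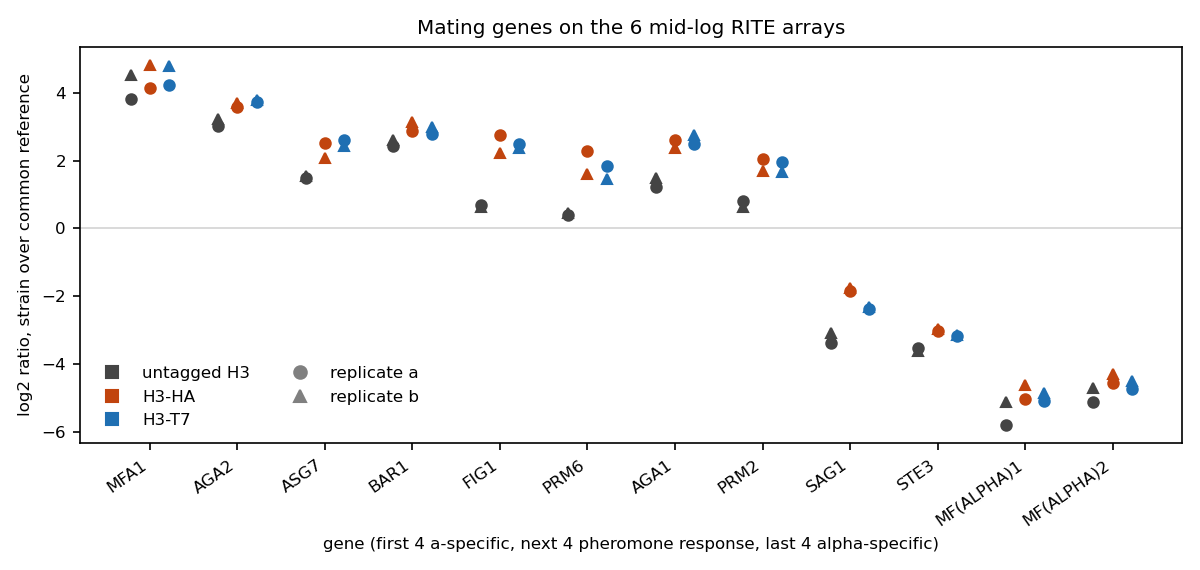
Log2 ratio of strain over common reference (vertical axis) for 12 mating genes on each of the 6 arrays, with a-specific genes on the left, pheromone response genes in the middle and alpha-specific genes on the right. All 6 arrays are high for a-specific and low for alpha-specific genes, and FIG1, PRM6, AGA1, PRM2, SAG1 and STE3 are higher on all 4 tagged arrays.

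Genes of meiosis and sporulation, which haploid cells in growth medium do not need, were slightly higher. Of 36 such genes 26 were called higher and none lower, 21 of them with both tags, with a median of 0.17. DIT1, which makes the precursor of the outer spore wall, was at 0.29 and 0.16 on the untagged arrays and between 1.03 and 1.11 on the tagged arrays (change 0.85, SE 0.04, adjusted p = 3.04e-08). HOP1, a protein of the meiotic chromosome axis, rose by 0.65, DMC1, the meiotic recombinase, by 0.64 and SPR3, a septin of sporulating cells, by 0.55. With the 6 arrays alone 16 of the 36 were called higher, and 3 when dim probes were left out.

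In the list of G1/S and DNA replication genes 10 of 50 were called higher and 9 lower (median -0.02), below and near the shares of all probes. The 4 highest were genes of the DNA damage response. HUG1, an inhibitor of ribonucleotide reductase, was at 0.21 and 0.20 on the untagged arrays and at 1.10, 1.85, 1.60 and 1.48 on the tagged arrays and rose by 1.31 (SE 0.12, adjusted p = 5.98e-06). RNR4, RNR2 and RNR3, subunits of that enzyme, rose by 0.77, 0.73 and 0.52, each with all 4 tagged arrays above both untagged arrays. MCM7, of the replicative helicase, fell by 0.28. Of 28 genes of G2/M and M/G1 6 were lower and 1 higher (median -0.02). That is 21.4% lower and 3.57% higher, against 21.1% and 26.8% of all probes. Within this list the mitotic cyclin genes CLB1 and CLB2 fell by 0.40 and 0.28.

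Genes that act on histones had small median changes. Those called lower made up 33.3% of the chaperone genes, 30.8% of the H3 modifying enzymes and 38.5% of the remodelers, against 21.1% of all probes. Of the silencing factors 20% were called lower and 20% higher, the latter against 26.8% of all probes, and 0 were higher with both tags. Of 15 histone chaperone genes 5 were called lower and none higher (median -0.07), with HAT2, the NuB4 subunit that binds histones, at 0.11 and 0.12 on the untagged arrays and between -0.24 and -0.10 on the tagged arrays (change -0.30, adjusted p = 7.16e-04), and PSE1, a histone importer, at -0.20. Of 26 genes of H3 modifying enzymes 8 were lower and 3 higher (median -0.02). SET2, the H3K36 methyltransferase, fell by 0.39, SAS3 and GCN5, H3 acetyltransferases, by 0.25 and 0.22, and HDA1, a deacetylase, by 0.23. Of 13 chromatin remodeler genes 5 were lower and 2 higher (median -0.05), with STH1, the ATPase of RSC, at -0.37 (adjusted p = 1.04e-06) and ISW1 at -0.19. Of 10 genes of silencing factors 2 were lower, led by RAP1 (-0.28), and 2 higher, SIR2 and RIF2 (0.27 each), of which SIR2 was at 0.07 without the untagged replicate b (adjusted p = 0.649) and RIF2 at 0.11 without the untagged replicate a (adjusted p = 0.521). SIR2 and RIF2 were also lost without single tagged arrays. Of 10 regulators of histone genes SPT21 rose by 0.24 and SPT2 and SPT10 fell by 0.15 and 0.10, and the calls of SPT21 and SPT10 were lost without the untagged replicate b (adjusted p = 0.0757 and 0.257). In the list of 10 regulators 10% were called higher and 20% lower, below and near the 26.8% and 21.1% of all probes, with a median of 0.0006. With the 6 arrays alone 2 of the chaperone genes, 4 of the modifying enzymes and 2 of the remodelers were called lower.

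Other metabolic lists were mixed. Of 31 genes of methionine and sulfur metabolism 18 were called higher and 6 lower (median 0.12): after MET17, MET3, ATP sulfurylase, rose by 0.50, MET14, adenylylsulfate kinase, by 0.47 and STR3, a cystathionine lyase, by 0.43, while SAM2, which makes S-adenosylmethionine, and MET8 fell by 0.43 and 0.36. The list of iron and other metal uptake had 15 of 28 genes higher and 2 lower (median 0.13), with the siderophore transporter SIT1 at 0.74, the zinc transporter ZRT1 at 0.71 and the mannoprotein FIT3 at 0.54, and the copper transporter CTR1 at -0.42. Of 46 cell wall genes 27 were higher and 4 lower (median 0.17), with PIR3 and SED1, wall mannoproteins, at 1.01 and 0.70 after AGA1 and UTR2, a chitin transglycosylase, at -0.41. PIR3 and SED1 were lost without the untagged replicate b (adjusted p = 0.0863 and 0.092), and the list had 10 genes called higher with the 6 arrays alone and 13 without that array. PIR3 was at 0.66 without HA replicate b. The iron and methionine lists had 8 and 13 genes called higher without the untagged replicate b. The ergosterol list had 13 of 27 higher and 5 lower, with ERG9 at 0.40 and ERG12 at -0.22, but its median of 0.06 turned to -0.07 after median centring, and 4 were higher without the untagged replicate b and 3 with the 6 arrays alone. In the ergosterol list 48.1% were called higher, against 26.8% of all probes, and 18.5% lower, against 21.1%. Amino acid biosynthesis had 14 of 55 higher and 12 lower, close to the shares of all probes. Phosphate starvation had 5 of 18 higher and 6 lower (33.3%), and 2 in each direction without the untagged replicate b. The share called higher in the phosphate list was 27.8%, against 26.8% of all probes, and 21.1% of all probes were called lower. In this list, the sodium-phosphate cotransporter gene PHO89 rose by 0.41 while PHO84 and PHM6 fell by 0.83 and 0.29.

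The 2 tags were compared with each other over the same probes. At an adjusted p under 0.05, 210 probes (3.29%) differed between H3-HA and H3-T7, 110 higher and 100 lower with HA. The median SE of this difference was 0.05. In the same direction with both tags 1934 probes were called, but both of those contrasts use the same untagged arrays. That count is therefore no independent measure of how far the tags agree. With the 6 arrays alone 0 probes were called between the tags, with 529 at an unadjusted p under 0.05, and there were 703 without HA replicate a, 81 without T7 replicate a and 116 without T7 replicate b. By distance from the chromosome end the tags differed at 27.3% and 34.1% of the genes at 5 to 10 kb and 10 to 15 kb, and at 2.15% of the genes beyond 100 kb. In the outermost 5 kb the share was 8.57% (3 of 35 genes), and at 15 to 20 kb it was 15.7%. COS5, in the outermost window, fell with both tags but by more with HA (1.19) than with T7 (0.73), and both HA arrays (-1.14 and -0.98) lay below both T7 arrays (-0.67 and -0.54). Of the 1934 probes called with both tags, 109 differed between them.

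The 14 mid-log arrays of the deletion strains gave the level of these genes in a further background, BY4742. For 91.9% of the probes called higher and 90.7% of those called lower, the median of these arrays was nearer to the untagged than to the tagged mean, against 69.8% of the probes not called. In probes not called the tagged and untagged means mostly lie close together. These shares therefore depend in part on the call itself, and no conclusion is drawn from their difference. Among the 109 called probes that rose by more than 1, the median of the deletion arrays was nearer to the untagged mean in 108, and in 105 the untagged mean lay above that median. HSP26 had a median of -0.73 there, HUG1 of -0.32 and AAD3 of -0.06. The median level of the ribosome biogenesis list was 0.25 and that of the 40 stress genes -0.02. The spot of ATG33 gave signal on these 14 arrays in both channels and on none of the 6 RITE arrays, so strain background and array set cannot be told apart in these levels. The changes within the 6 arrays do not use these levels, but their p-values take the spread from these 14 arrays as well, and with the 6 arrays alone the calls numbered 1280 in place of 3058.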

How the data were processed

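The authors deposited the spot and local background intensity of each of 15552 spots per array, uncorrected, and normalized log2 ratios. The submitters' notes on processing name limma 2.12.0. Both were used. Their own comparisons, log2 changes with p-values, were deposited as a further table and were left out, and 0 columns of per-sample values were left unused. The study's methods name normalization and a correction of dye bias, and their settings are not given in the sources used here. The deposited ratios correlated with the raw ratios turned to strain over reference at 0.92 to 0.96 on the 6 arrays, so their direction is the same.

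Background was corrected by normexp with an offset of 50, loess was run on each array with control spots at weight 0, and the 2 spots of a probe were averaged (R 4.3.3, limma 3.58.1). Ratios were turned to strain over reference. The reference was labelled with Cy5 in replicate a and with Cy3 in replicate b. Moderated linear models were fitted to 20 mid-log arrays, 14 of them of deletion strains that add to the estimate of the spread, with 1 term per strain and a dye effect per gene and experiment (8 residual degrees of freedom). The Benjamini-Hochberg adjustment covered all 6388 probes. The fit was run on simulated data with independent noise on each array, which does not test effects of a clone, a culture or a single array.

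The replicate letter is also the dye orientation. Deviations from the strain mean correlated between arrays of the same letter at 0.25, 0.53 and 0.15, so the letters were taken to pair the arrays and the dye effect is the replicate block.

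Of the probes 5326 have 1 gene symbol and 1062 none. Of the symbols 5320 were found in the RefSeq R64 gene table, which gave current names and distances to chromosome ends, and where 2 probes share a symbol the brighter stands for the gene. Above background means a foreground over 2 SDs of the local background beyond it. The members, the 39 gene lists and the rule for named genes were chosen with earlier results of these data known. Named are all histone, locus, marker and HHT2-flanking genes, the 15 highest and 15 lowest changes called with both tags and separated on every array, and up to 4 members of each list with the largest change and up to 2 against it. Promoter sequences were not analysed here. The number of arrays limits the precision.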

Additional observations from a re-analysis of the deposited data

Results flagged for a closer look

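Each strain has 2 arrays, so no array of a strain could be tested as standing apart from the others of its group. Among the named genes, 14 had a change that differed between the tags at an adjusted p under 0.05, and none of these differences passed with the 6 arrays alone (adjusted p between 0.323 and 0.563).

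The change was lower with HA than with T7 for YCR099C (difference HA minus T7 -0.54), SNO2 (-0.50), COS5 (-0.46), COS10 (-0.31) and IRC7 (-0.28), all near chromosome ends and all lower with both tags than without. YGR109W-A (-0.41) and the siderophore transporter gene SIT1 (-0.33) rose with both tags, and by less with HA. HHF1 (-0.32), which is deleted in all 3 strains, was lower with HA only.

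The change was higher with HA for YDR210W-B (0.66), YFL002W-B (0.57), SAG1 (0.55), YNL034W (0.33), the meiotic gene HOP1 (0.25) and ERG9, squalene synthase (0.20), which all rose with both tags.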

How the results depend on the processing

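HHT2 kept its direction and its call under every alternative that gives a p (adjusted p 8.07e-05 to 0.0336), at -0.50 after median centring, from -0.36 to -0.25 when single arrays were left out and at -0.34 and -0.27 within replicates a and b. The numbers of calls moved with the arrays that set the spread. Without the replicate block 1890 probes were called in all, 680 of them lower, with 1105 called with both tags (287 lower) and 63 between the tags. With the RITE arrays alone, which leave 2 residual degrees of freedom, 1280 were called (910 higher, 370 lower), 536 with both tags (458 higher, 78 lower) and 0 between the tags, and 1276 of the 1280 were called in the same direction in the main comparison. With all 36 arrays 1409 were called (949 higher, 460 lower), 741 with both tags (599 higher, 142 lower) and 30 between the tags. Between the tags median centring left 60 calls and removing dim probes 125.

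Leaving out single arrays gave 1383 to 3377 calls, 941 to 1845 higher and 442 to 1532 lower. With both tags there were 848 to 2070, 656 to 1277 higher and 192 to 793 lower, and between the tags 81 to 703. Each lowest count was without the untagged replicate b, except that between the tags (without T7 replicate a), and each highest was without HA replicate a. Calls lower with both tags also fell to 407 without HA replicate b and 369 without T7 replicate a. Directions turned after median centring for HTA1 (-0.0699), HTA2 (-0.32), HTB1 (-0.0738), HTB2 (-0.20) and KTR5 (0.0448), and after print-tip loess for GPM1 (-0.84). The cause was not tested. Of 161 genes checked 146 were called, and 85 of these held their direction and call under every alternative. With 2 untagged arrays, 1 array carries much of each comparison.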
